A study of Rattus norvegicus with 32 samples.

Results

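Genes of glycolysis and of the response to low oxygen were followed across 4 groups of rat hippocampus that differed in maternal iron supply and in intranasal insulin. The set was defined by name, with 34 genes: 16 glycolytic enzymes, and 18 genes that are known targets of the hypoxia-inducible factors or encode those factors. Of these, 33 had a row under their name among the 32883 genes of the table, and all 33 passed the filter on low counts. These were the 16 enzymes and 17 hypoxia-inducible genes; Pfkfb4 was not analysed here.

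Glycolysis turns glucose into pyruvate, and lactate dehydrogenase interconverts pyruvate and lactate. Hypoxia-inducible factors are transcription factors whose alpha subunit is marked for breakdown by prolyl hydroxylases that need oxygen and iron, so that low oxygen or low iron can let the subunit build up. Many glycolytic enzymes are among their target genes, and in the brain astrocytes and neurons share the handling of glucose and lactate.

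Each of the 32 libraries came from total RNA of 1 hippocampus of a wild-type rat pup. Iron-deficient (ID) pups were born to dams fed a diet with 3 to 6 ppm iron from gestation day 3 until postnatal day 7, and the diet of the iron-sufficient (IS) dams is not described. Control pups of each diet were compared with pups given insulin through the nose 2 times a day from postnatal day 8 to 21. There were 8 IS control, 9 ID control, 7 IS insulin and 8 ID insulin libraries. The insulin dose and what the control pups received through the nose are not given in the labels. Collection was on postnatal day 7 or 21, and the labels do not say which day applies to which pup. Insulin ran to postnatal day 21, so if any control pups were collected on the earlier day, insulin and age cannot be told apart in the comparisons that use them. If the control groups of the diets held unlike shares of the days, diet and age cannot be told apart either. Litters are not named, and the p-values therefore reflect variation among single pups, some of which may be littermates.

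Libraries held between 19619345 and 28062630 counts. Levels are CPM, counts scaled to a common library total. They are compared within a gene and not between genes, because no gene lengths were used. Hippocampal excitatory neuron genes were present in every library (Camk2a at 965 to 1392 CPM, Slc17a7 at 1357 to 2274 CPM, Prox1 at 61.8 to 135 CPM), whereas Spink8, a hippocampal pyramidal cell gene in mouse, lay between 0.0462 and 0.507 CPM. The library of ID insulin replicate 3 stood apart: set against the other ID insulin libraries, its counts gave chi-square values per gene of 47.8 to 106, where the remaining pairs of libraries of 1 group gave 5.87 to 37.5. Transferrin receptor Tfrc, whose mRNA is stabilised when iron is scarce, had medians of 118 and 120 CPM in the IS control and IS insulin groups and of 169 and 205 CPM in ID control and ID insulin. Y-linked genes summed to 0 to 106 CPM in IS control (median 49.8) and 0.115 to 116 in ID control (median 0.530). They summed to 0 to 112 CPM in IS insulin (median 0.210) and 0.0461 to 118 in ID insulin (median 51.8). Each group thus held pups of both sexes, in unlike shares, and sex was not part of the main fit. The first number of the library titles follows the group, except that ID control holds 5 libraries numbered 69 and 4 numbered 70. Nothing says what that number marks, so it cannot be told apart from the group, and values with each number alone are given beside the calls that use ID control and beside Eno1 and Pgam1.

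Promoters were read for the members in the table of promoters, to show whether their sequence holds the core of the hypoxia response element, the short motif that the factors bind. The cores ACGTG and GCGTG were searched on both strands of the 250 bases before each gene's start, and a CACGTG is counted on both strands. Of the 33 members 30 had an entry, with 35 promoters, and 23 of these (65.7%) held a core. The share was 68.4% for the enzymes (13 of 19 promoters), 62.5% for the hypoxia-inducible genes (10 of 16) and 36.7% for all 33469 promoters of the same length. ACGTG alone was found in 48.6% of the members' promoters and in 16.6% of all. The shares for all promoters include genes that were not tested here and were not matched to the members for base composition. A match is a description of these letters and no evidence of binding. Below are 3 members whose RNA level differed between groups and Ldha, whose level did not pass the test in any comparison (RefSeq, build GRCr8, 5′ to 3′ on the gene's strand, ending at the base before the start, cores in capitals). Aldoc lies at chr10:63715294-63715543 on the plus strand, Ldhb at chr4:177177409-177177658 on the minus strand, Mxi1 at chr1:262348392-262348641 on the plus strand and Ldha at chr1:106507842-106508091 on the plus strand.
Aldoc: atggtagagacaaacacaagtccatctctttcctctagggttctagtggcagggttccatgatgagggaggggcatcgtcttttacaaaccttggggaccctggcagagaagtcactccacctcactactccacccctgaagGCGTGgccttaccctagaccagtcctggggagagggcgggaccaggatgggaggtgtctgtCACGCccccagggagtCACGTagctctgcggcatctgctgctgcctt
Ldhb: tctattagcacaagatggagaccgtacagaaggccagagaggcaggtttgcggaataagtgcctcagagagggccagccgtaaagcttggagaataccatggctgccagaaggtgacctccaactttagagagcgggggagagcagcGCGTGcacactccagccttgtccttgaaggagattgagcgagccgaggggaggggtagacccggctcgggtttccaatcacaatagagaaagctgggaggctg
Mxi1: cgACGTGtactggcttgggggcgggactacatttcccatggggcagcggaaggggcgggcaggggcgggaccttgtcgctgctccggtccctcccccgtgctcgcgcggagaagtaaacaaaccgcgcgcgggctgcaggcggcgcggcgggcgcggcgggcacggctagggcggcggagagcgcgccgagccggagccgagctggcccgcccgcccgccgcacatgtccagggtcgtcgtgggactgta
Ldha: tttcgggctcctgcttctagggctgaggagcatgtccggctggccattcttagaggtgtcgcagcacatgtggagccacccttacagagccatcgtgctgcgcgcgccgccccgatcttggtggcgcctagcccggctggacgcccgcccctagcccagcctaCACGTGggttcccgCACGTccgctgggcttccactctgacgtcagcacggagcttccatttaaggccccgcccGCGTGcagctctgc
The Aldoc window holds 3 cores, the Ldhb and Mxi1 windows 1 each and the Ldha window 4. The windows of Vegfa (2 promoters) and Epas1 (1 promoter) held no core. For Aldoa 1 window held 1 core and its other windows held none, and Ndrg1 had no entry.

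The summed level of the 16 enzymes ran from 7852 to 8714 CPM in IS control (median 8189), from 7533 to 8935 in ID control (median 8580.0), from 7958 to 8723 in IS insulin (median 8586) and from 7371 to 8249 in ID insulin (median 8014). The ID insulin libraries sat lowest and overlapped every other group. The ratio of the highest to the lowest group mean was below 1.2 for 14 of the 16 enzymes, and for 67.8% of all genes tested. ID insulin held the lowest group mean of 10 of the 16 enzymes and the highest of none, against 27.4% and 29.4% of all genes tested.

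**Figure D1:**
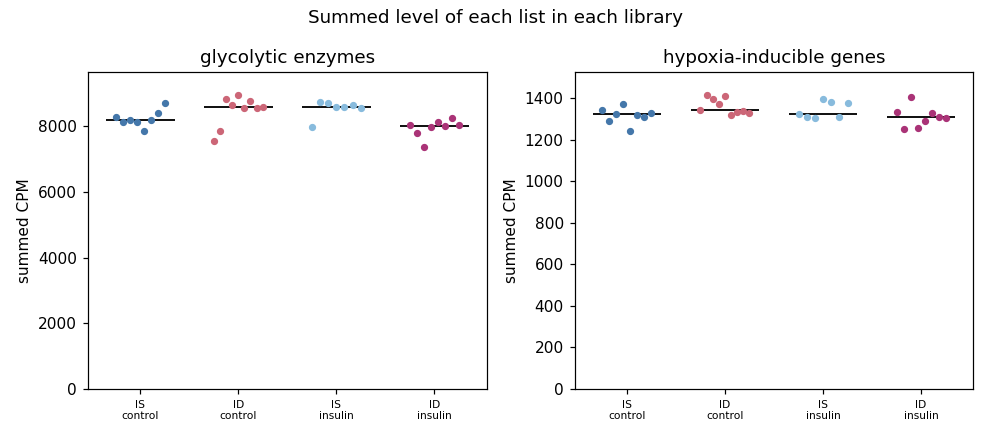
Summed level (CPM, from 0) of the 16 glycolytic enzymes (left) and the 17 hypoxia-inducible genes (right), 1 point per library and a line at the group median. The enzyme medians lie between 8014 CPM in ID insulin and 8586 CPM in IS insulin, and the points of the 4 groups overlap in both panels.

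Differences were tested with edgeR's quasi-likelihood F-test over all 15439 genes tested, and a gene was called at a Benjamini-Hochberg adjusted p below 0.05. In 6 comparisons there were 11 calls among the 33 members, of 7 genes: the enzymes Aldoa, Aldoc and Ldhb, and the hypoxia-inducible genes Epas1, Vegfa, Ndrg1 and Mxi1. Their log2 fold changes were between 0.15 and 0.43 in size, and the other 26 members were called in no comparison.

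Without insulin, between ID control and IS control, 0 of 33 members were called by edgeR, where 0.291% of all genes tested were called. Title number, shares of the sexes and possibly age differed there along with the diet. At an unadjusted p below 0.05 there were 7 members (21.2%), against 11.9% of all genes. DESeq2 called 0 members and 114 genes in all, and limma voom, run with a quality weight for each library, 1 member (Epas1) and 242 genes. Between ID insulin and ID control, 0 members rose and 4 fell (Aldoa, Epas1, Ndrg1 and Mxi1). Of all genes tested 3.82% were called there, 1.86% lower. Between IS insulin and IS control, 0 of 33 were called by edgeR, against 0.123% of all genes, with 7 (21.2%) at an unadjusted p below 0.05 against 16.3% of all genes. DESeq2 called 2 members there (Ldhb and Vegfa) and 206 genes in all, and limma voom 0 members and 28 genes. Between ID insulin and IS insulin 3 fell (Aldoc, Ldhb and Mxi1), where 2.45% of all genes were called and 1.13% were lower. Between ID insulin and IS control 1 rose (Vegfa) and 1 fell (Ndrg1), where 3.35% of all genes were called, 2.07% higher and 1.28% lower. The difference between the insulin effects in ID and IS pups was called for 2 members, both with the lower effect in ID pups (Ldhb and Mxi1), where 0.939% of all genes were called, 0.427% in that direction. These comparisons share groups, so their calls are not separate evidence.

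The median log2 fold change of the enzymes was -0.09 for ID insulin against ID control, with 15 of 16 below 0, while the median of all genes tested was 0.00. That of the hypoxia-inducible genes was -0.04, with 12 of 17 below 0. The median of 11 tested hippocampal neuron markers was -0.11 in the same comparison, with 9 of 11 below 0 and 4 at an unadjusted p below 0.05. Summed over all 12 listed, these markers ran from 3112 to 4672 CPM in ID insulin (median 3992) and from 3986 to 4450.0 CPM in ID control (median 4401), and ID insulin replicate 3 was the lowest of all libraries both for these markers and for the summed enzymes. The part of the neuron markers in the enzyme levels was not tested. For ID insulin against IS insulin the medians were -0.07 for the enzymes (14 of 16 below 0), -0.02 for the hypoxia-inducible genes (10 of 17) and -0.00 for all genes. For IS insulin against IS control they were 0.03, 0.01 and 0.01, and for ID control against IS control 0.03, 0.01 and 0.01. The genes of a list share libraries, so these counts are a description.

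**Figure D2:**
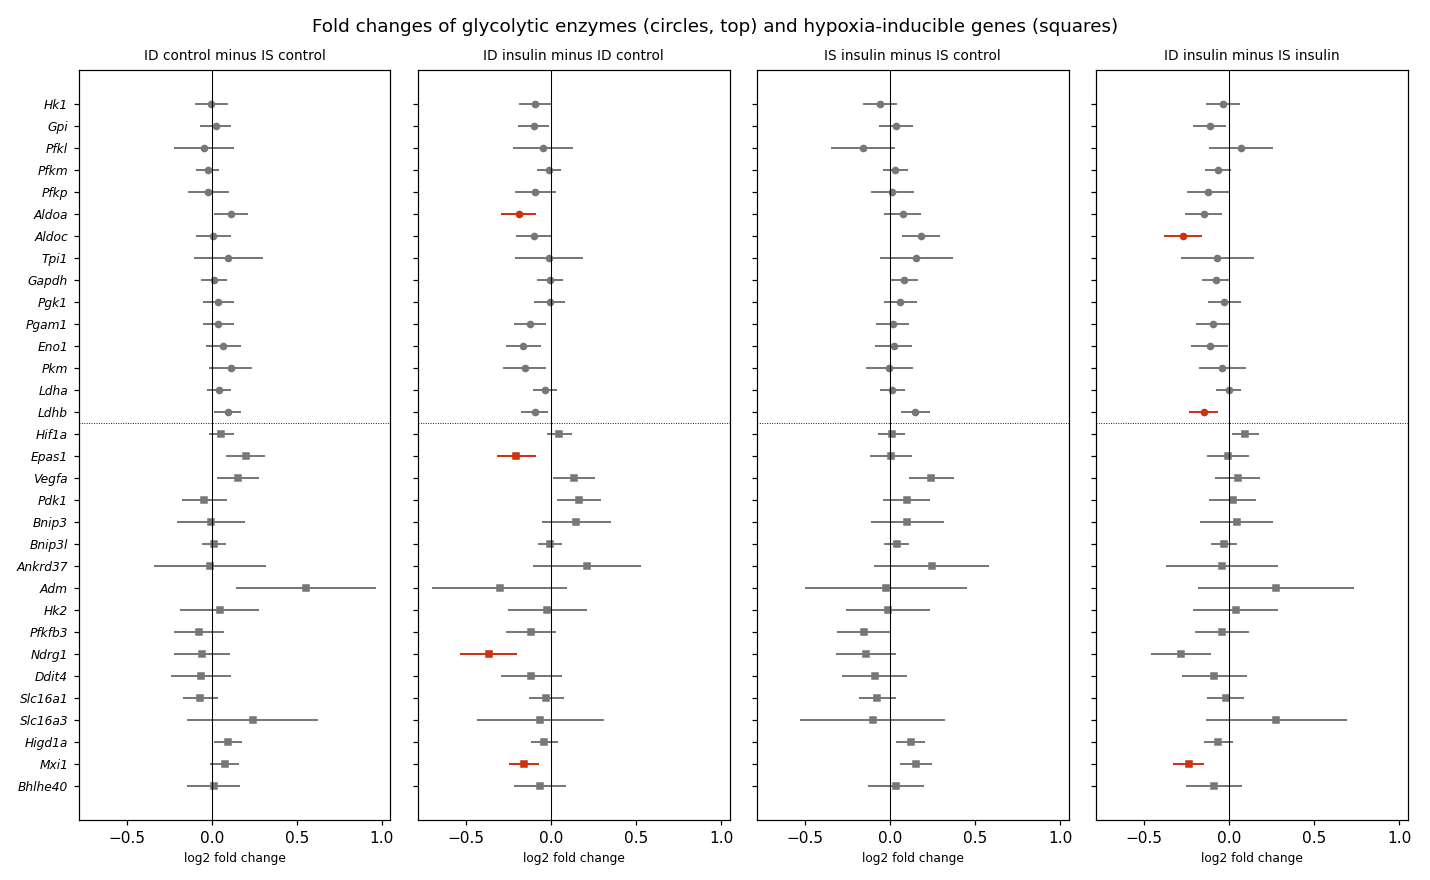
Log2 fold change with its 95% interval for the 15 enzymes other than Eno2 (circles) and the 17 hypoxia-inducible genes (squares) in 4 comparisons; red marks an adjusted p below 0.05. The red points are Aldoa, Epas1, Ndrg1 and Mxi1 in ID insulin minus ID control and Aldoc, Ldhb and Mxi1 in ID insulin minus IS insulin, and all lie below 0.

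Among the enzymes of the preparatory steps, the aldolases split fructose 1,6-bisphosphate into 3-carbon sugars, and Aldoa (ENSRNOG00000052802) is the form made in most tissues. Aldoa ranged from 1157 to 1447 CPM in ID control (median 1389.7) and from 977 to 1264 CPM in ID insulin (median 1219). It ranged from 1170.0 to 1357 in IS control (median 1248) and from 1149 to 1370.4 in IS insulin (median 1332). The ID insulin libraries lay toward the bottom and overlapped ID control, with 2 of 8 below all 9 ID control libraries. Aldoa fell between ID control and ID insulin by 0.19 on the log2 scale (SE 0.05, edgeR adjusted p = 0.0272). With title number 70 alone the difference was -0.23 (adjusted p = 0.0431), and with 69 alone -0.17 (adjusted p = 0.183). Without ID control replicate 5 the adjusted p was 0.0589. The insulin effect on Aldoa differed between ID and IS pups by -0.26 (adjusted p = 0.0649), and passed without ID control replicate 1 or 2, IS insulin replicate 1 or ID insulin replicate 3 (adjusted p from 0.0284 to 0.0484).

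Aldoc (ENSRNOG00000011452), the brain aldolase, is known to be enriched in astrocytes. It ranged from 576 to 769 CPM in IS control (median 699), from 647 to 785 in ID control (median 688), from 725 to 856 in IS insulin (median 792) and from 596 to 731 in ID insulin (median 645). IS insulin was the highest group, and 7 of 8 ID insulin libraries lay below all 7 IS insulin libraries. Aldoc was lower in ID insulin than in IS insulin by a log2 fold change of -0.28 (SE 0.05, edgeR adjusted p = 0.00691). Its difference between insulin and control in IS pups was 0.18 (adjusted p = 0.11) and the difference between the insulin effects was -0.28 (adjusted p = 0.0544). That difference passed without ID control replicate 1 or 2, IS control replicate 4, IS insulin replicate 6 or ID insulin replicate 3 (adjusted p from 0.0186 to 0.0457). The summed level of 10 astrocyte markers was 4159 to 5746 CPM in ID insulin and 4072 to 5461 CPM in IS insulin. The highest of the ID insulin libraries was replicate 3, and the others were at most 4877 CPM. Of those markers 1 of 10 (Gjb6) was called lower in ID insulin, 8 of 10 had a log2 fold change below 0, and the list median was -0.10 with 3 at an unadjusted p below 0.05. Their part in the Aldoc result was not tested.

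Lactate dehydrogenase is a tetramer of A and B subunits, and the B subunit, encoded by Ldhb (ENSRNOG00000013000), is the main form in heart and is abundant in neurons. Ldhb ranged from 339 to 382 CPM in IS control (median 368), from 361 to 421 in ID control (median 389.7), from 370.2 to 445 in IS insulin (median 411) and from 345 to 398 in ID insulin (median 362). IS insulin was again the highest group by median, and 5 of 8 ID insulin libraries lay below all IS insulin libraries. Ldhb was lower in ID insulin than in IS insulin by -0.15 on the log2 scale (SE 0.04, edgeR adjusted p = 0.0469). Leaving out any of 16 single libraries took that adjusted p to between 0.0501 and 0.108: ID control replicates 6 and 9, IS control replicates 1, 6, 7 and 8, IS insulin replicates 1, 2, 3, 4 and 7, and ID insulin replicates 2, 4, 6, 7 and 8. Among 13 other ways of running the test, the call held in 6. It was lost with limma voom, without a count filter, with only the compared groups in the fit and with title number 69 alone. Blocking libraries by the last number of their titles also lost it, as did Y-linked or tissue list means as covariates. The insulin effect on Ldhb, 0.15 in IS pups and -0.10 in ID pups, differed by -0.24 (SE 0.06, adjusted p = 0.0307). With title number 69 or 70 alone the adjusted p of that difference was 0.0973 and 0.0676, and leaving out any of 10 libraries took it to between 0.0511 and 0.0687. These were ID control replicates 3, 4 and 5, IS control replicates 2 and 5, IS insulin replicates 1, 2 and 3, and ID insulin replicates 6 and 8.

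The A subunit, encoded by Ldha (ENSRNOG00000013009), ranged from 455 to 508 CPM in IS control (median 459), from 415 to 515 in ID control (median 485), from 462 to 484 in IS insulin (median 474) and from 446 to 498 in ID insulin (median 468). Ldha was called in no comparison, and its 95% intervals lay between -0.11 and 0.11 in the 5 comparisons of group pairs. The ratio of Ldha to Ldhb counts had a median of 1.27 and 1.16 in the IS control and IS insulin groups and of 1.23 and 1.32 in ID control and ID insulin, which is a ratio of counts and not per length. Gapdh (ENSRNOG00000018630), the dehydrogenase often used as a reference gene, was called in no comparison either. Its group medians were 1411, 1442, 1503 and 1413 CPM in IS control, ID control, IS insulin and ID insulin, with libraries between 1269 and 1595 CPM. Gapdh, Ldha and other enzymes have processed copies in the genome, and how the authors' counting treated reads that match several places is not stated, so their levels are uncertain.

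Eno1, which encodes the ubiquitous enolase, had a log2 fold change of -0.16 between ID insulin and ID control (adjusted p = 0.0589), which passed without ID control replicate 1 or 2, IS insulin replicate 1 or ID insulin replicate 2 (adjusted p from 0.0103 to 0.0434). It also passed with DESeq2 (adjusted p = 0.0235), with limma voom (adjusted p = 0.0215) and with the mean of a list of Y-linked genes as a covariate (adjusted p = 0.0416). The Eno1 difference was -0.29 with title number 70 alone (adjusted p = 0.00201) and -0.06 with 69 alone (adjusted p = 0.594), and the difference between insulin effects passed with 70 alone (-0.30, adjusted p = 0.0184). It lay between 536 and 648 CPM in the 5 ID control libraries numbered 69 and between 673 and 737 in the 4 numbered 70, 2 ranges that do not overlap, as for 1.81% of 15008 genes in that direction (log2 fold change 0.23, adjusted p = 0.201). The same held for Eno2, at 2.33 to 3.46 CPM and 3.55 to 4.40 CPM, and in the other direction for Bnip3l, at 185 to 206 CPM and 174 to 183 CPM, where 1.75% of genes did so. Of all 33 members, 0 were called between those numbers, with 0.22% of all genes called. At an unadjusted p below 0.05 there were 7 of the 33, a larger share than the 8.92% of all genes. Eno2 (ENSRNOG00000048365), the neuronal enolase, was at a low level, with 29 of 32 libraries under 10 CPM, between 2.12 and 7.63 CPM. The other 3 were IS control replicate 8 at 84.7 CPM (2246 counts) and ID insulin replicates 4 and 6 at 20.9 and 12.1 CPM. The log2 fold change of Eno2 was -2.12 for ID control against IS control (adjusted p = 0.135), and without IS control replicate 8 it was -0.30 (adjusted p = 0.833). The difference between the insulin effects on Eno2 was 2.92 (adjusted p = 0.107), and 1.10 without that library (adjusted p = 0.295). Tpi1, triose phosphate isomerase, was also low, at 15.3 to 28.0 CPM. Whether the counts of Eno2 and Tpi1 hold all their reads was not tested.

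**Figure D3:**
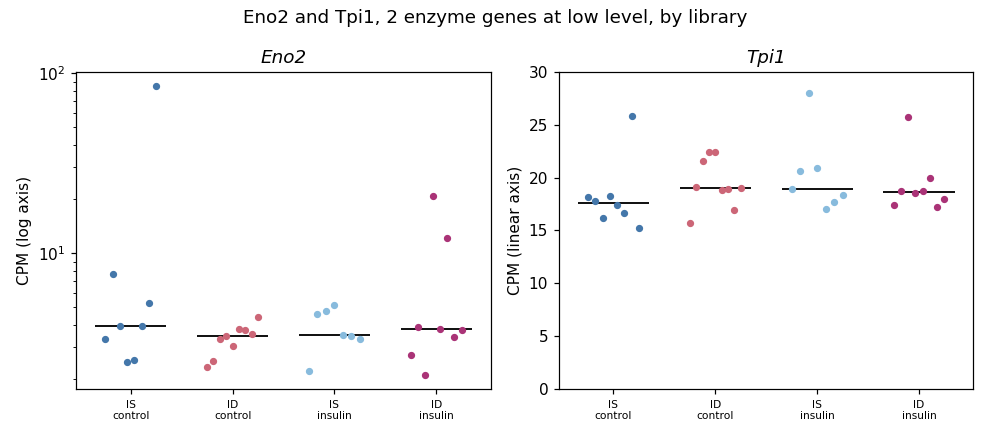
Level of Eno2 (log axis) and Tpi1 (linear axis from 0), in CPM, 1 point per library and a line at the group median. Eno2 lies between 2.12 and 7.63 CPM in 29 libraries and reaches 84.7 CPM in 1 IS control library; Tpi1 lies between 15.3 and 28.0 CPM.

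The other enzymes were called in no comparison: the hexokinase Hk1, the isomerase Gpi, the phosphofructokinases Pfkl, Pfkm and Pfkp, the kinases Pgk1 and Pkm and the mutase Pgam1, with Eno1, Eno2, Tpi1, Gapdh and Ldha above. In ID insulin against ID control the log2 fold changes of the 15 enzymes not called were between -0.16 and -0.01, apart from Eno2 at 1.00. Pgam1 passed in that comparison without ID control replicate 1 (log2 fold change -0.15, adjusted p = 0.0476), and had -0.10 with title number 69 alone (adjusted p = 0.381) and -0.15 with 70 alone (adjusted p = 0.139).

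Summed over the 17 hypoxia-inducible genes, levels had medians of 1323 CPM in both IS groups, 1342 CPM in ID control and 1307 CPM in ID insulin, and 12 of 17 had group means within a ratio of 1.2, a share near the 67.8% of all genes. Their called members did not go 1 way, since Vegfa was called higher in ID insulin, against IS control, and Epas1, Ndrg1 and Mxi1 lower, each against at least 1 other group.

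Of the factors themselves, Hif1a (ENSRNOG00000008292) encodes the subunit whose protein, rather than its mRNA, is the main target of oxygen sensing. Hif1a ranged from 90.5 to 103.6 CPM in IS control (median 94.3), from 94.3 to 113 in ID control (median 97.3), from 90.7 to 99.0 in IS insulin (median 95.9) and from 96.3 to 112 in ID insulin (median 102). All groups overlapped, with 4 of 8 ID insulin libraries above all IS control libraries. Hif1a was called in no comparison, and its log2 fold change was 0.10 for ID insulin against IS control (adjusted p = 0.108) and 0.06 for ID control against IS control (95% interval -0.02 to 0.13).

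Epas1 (ENSRNOG00000021318) encodes the HIF-2 alpha subunit, prominent in endothelial cells. It ranged from 202 to 256 CPM in IS control (median 234), from 249.6 to 294 in ID control (median 267), from 197 to 248 in IS insulin (median 232) and from 194 to 264 in ID insulin (median 241). ID control was the high group, with 7 of 9 of its libraries above all IS control libraries, and 5 of 8 ID insulin libraries lay below all ID control libraries. Epas1 fell between ID control and ID insulin by 0.20 on the log2 scale (SE 0.06, edgeR adjusted p = 0.0342). Its difference between ID control and IS control was 0.20 and did not pass the test (adjusted p = 0.116). With title number 69 or 70 alone the differences between ID insulin and ID control were -0.24 (adjusted p = 0.087) and -0.17 (adjusted p = 0.252), and leaving out ID control replicate 2, 5 or 7 or ID insulin replicate 2, 3 or 4 took the adjusted p to between 0.0509 and 0.0759. The summed level of 11 endothelial and pericyte markers was 469 to 676 CPM in IS control, 665 to 731 in ID control, 579 to 679.5 in IS insulin and 482 to 684 in ID insulin. Of these markers 3 of 11 (Vtn, Cdh5 and Itm2a) fell between ID control and ID insulin; all 11 had a log2 fold change below 0 there (median -0.20, 7 at an unadjusted p below 0.05). All 11 were above 0 in ID control against IS control (median 0.20), where 1 was called (Ocln). The list and Epas1 thus had medians and fold changes of like size in both comparisons, and its part in the Epas1 result was not tested. Fewer cells of a type and less RNA per cell cannot be told apart in whole tissue.

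Vegfa (ENSRNOG00000019598) encodes the growth factor that drives blood vessel growth. It ranged from 78.0 to 89.2 CPM in IS control (median 84.0), from 77.9 to 106 in ID control (median 91.6), from 84.0 to 122 in IS insulin (median 97.3) and from 88.8 to 116 in ID insulin (median 102). Group medians increased in that order, and 7 of 8 ID insulin libraries lay above all IS control libraries. Vegfa was higher in ID insulin than in IS control by 0.29 (SE 0.06, edgeR adjusted p = 0.00899). The separate steps did not pass: 0.15 for ID control against IS control (adjusted p = 0.292), 0.24 for IS insulin against IS control (adjusted p = 0.0938) and 0.14 for ID insulin against ID control (adjusted p = 0.206).

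Ndrg1 (ENSRNOG00000007393) encodes a hypoxia- and stress-induced protein that is made in oligodendrocytes and Schwann cells and is needed for peripheral myelin. It ranged from 68.5 to 94.6 CPM in IS control (median 85.7), from 66.9 to 104 in ID control (median 73.0), from 66.9 to 82.4 in IS insulin (median 76.2) and from 56.0 to 67.1 in ID insulin (median 62.5). ID insulin was the low group: 8 of 8 of its libraries lay below all IS control libraries, where 0.136% of all genes tested had lower groups that did not overlap, and 7 of 8 lay below all ID control libraries. Ndrg1 was lower in ID insulin than in IS control by -0.43 (SE 0.08, edgeR adjusted p = 0.00414) and than in ID control by -0.37 (SE 0.08, adjusted p = 0.0102), and the difference from IS insulin was -0.28 (adjusted p = 0.0636), which passed without ID control replicate 5 or ID insulin replicate 3 (adjusted p from 0.0446 to 0.0458). Within ID control, Ndrg1 ran from 67.2 to 104 CPM in the libraries numbered 69 and from 66.9 to 73.0 in those numbered 70. The difference between ID insulin and ID control was -0.51 with 69 alone (adjusted p = 0.00385) and -0.18 with 70 alone (adjusted p = 0.223).

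The summed level of 12 myelin and oligodendrocyte markers, for comparison with Ndrg1, was 17522 to 24485 CPM in IS control, 15405 to 23732 in ID control, 19933 to 28577 in IS insulin and 17845 to 31918 in ID insulin. In ID insulin against ID control 1 of 12 was called higher (Ugt8) and 1 lower (Mal), with the list median at 0.16. There 11 of 12 had a log2 fold change above 0, and 6 were at an unadjusted p below 0.05. Against IS control 9 of 12 were above 0 (median 0.07, 1 at an unadjusted p below 0.05), with 0 called higher and 1 lower. The summed level of 14 glucocorticoid-responsive genes was 424 to 482 CPM in ID insulin, 496 to 635 in ID control, 477 to 659 in IS control and 484 to 565.5 in IS insulin. Of these 14, 3 were called lower in ID insulin than in ID control (Per1, Nfkbia and Errfi1), and 5 were called lower than in IS control. All 14 had a log2 fold change below 0 against ID control (median -0.26, 8 at an unadjusted p below 0.05). Against IS control 13 of 14 did (median -0.34, 10 at an unadjusted p below 0.05). The part of these lists in the Ndrg1 result was not tested.

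Mxi1 (ENSRNOG00000034078) encodes a partner of Max that opposes Myc at their shared target genes. It ranged from 83.9 to 94.3 CPM in IS control (median 89.7), from 87.2 to 99.2 in ID control (median 95.9), from 89.5 to 103 in IS insulin (median 102) and from 74.4 to 95.9 in ID insulin (median 83.7). IS insulin was the highest group and ID insulin the lowest, and 6 of 8 ID insulin libraries lay below all IS insulin libraries and below all ID control libraries. Mxi1 was lower in ID insulin than in IS insulin by -0.24 (SE 0.05, edgeR adjusted p = 0.00425) and than in ID control by -0.16 (SE 0.04, adjusted p = 0.0292). The insulin effect, 0.15 in IS pups and -0.16 in ID pups, differed by -0.31 (SE 0.06, adjusted p = 0.0181). With title number 69 or 70 alone the adjusted p was 0.0836 and 0.199 for ID insulin against ID control, and 0.0577 and 0.0509 for the difference between insulin effects. Without ID control replicate 5 or ID insulin replicate 5 or 8 the adjusted p for ID insulin against ID control was 0.0604 to 0.0629.

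**Figure D4:**
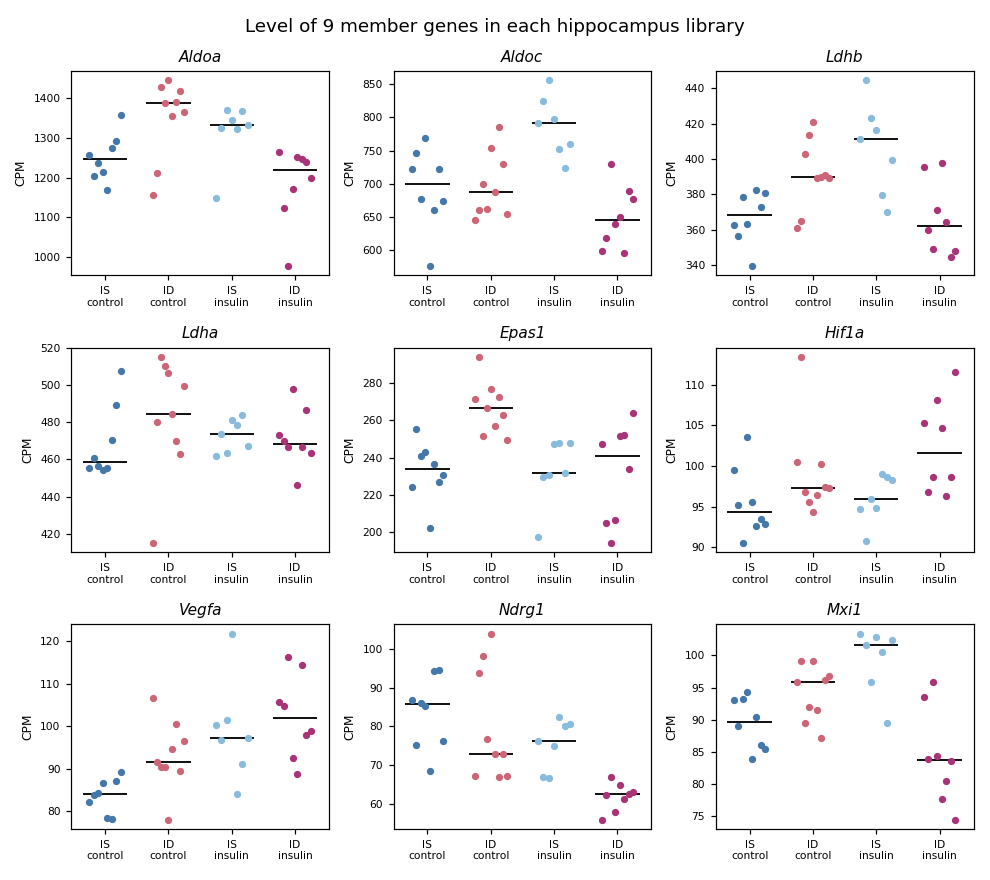
Level in CPM of 9 members in each library, with a line at the group median and a separate linear axis for each gene that does not start at 0. In the ID insulin group Ndrg1 lies at 56.0 to 67.1 CPM, below all IS control libraries but overlapping ID control and IS insulin. Mxi1 lies there at 74.4 to 95.9 CPM and overlaps every other group, and Ldha overlaps in all groups.

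Adm (ENSRNOG00000027030), the vessel-widening peptide adrenomedullin, was near the floor of detection, at 0.715 to 2.61 CPM in IS control (median 1.40), 1.32 to 2.90 in ID control (median 2.14), 0.914 to 2.15 in IS insulin (median 1.45) and 1.29 to 2.52 in ID insulin (median 1.60). All groups overlapped. Its log2 fold change for ID control against IS control was 0.55 (SE 0.20, adjusted p = 0.249). The remaining hypoxia-inducible genes were called in no comparison. Among them were Hk2 and Pfkfb3, which feed and speed glycolysis, and Pdk1, which limits the use of pyruvate inside the mitochondrion. The rest were the lactate carriers Slc16a1 and Slc16a3, the mitophagy genes Bnip3 and Bnip3l, and Ankrd37, Ddit4, Higd1a and Bhlhe40. Across the 14 that were not called in ID insulin against ID control, log2 fold changes were between -0.30 (Adm) and 0.21 (Ankrd37). Pfkfb3 passed in ID insulin against IS control without ID insulin replicate 7 (-0.26, adjusted p = 0.0175), and Higd1a in the difference between insulin effects without ID insulin replicate 3 (-0.19, adjusted p = 0.0408).

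Of 28 other genes of glycolysis and pyruvate handling, 27 were in the table and 19 were tested. The only call in the 6 comparisons was Slc2a3, the neuronal glucose transporter, lower in ID insulin than in IS insulin by -2.97 (adjusted p = 0.0332). Slc2a3 was at 0.277 to 9.26 CPM in IS insulin (median 0.360) and 0.276 to 0.609 in ID insulin (median 0.344), so the difference lies in the IS insulin libraries above the median. Of 33 other genes of the hypoxia pathway, 31 were in the table, 29 were tested and 2 were called. Tfrc rose by 0.53 in ID control against IS control (edgeR adjusted p = 0.000116), by 0.26 in ID insulin against ID control (adjusted p = 0.0243), by 0.68 in ID insulin against IS insulin (adjusted p = 1.79e-06) and by 0.79 in ID insulin against IS control (adjusted p = 1.35e-08). With title number 69 or 70 alone, Tfrc differed between ID control and IS control by 0.50 and 0.55 (adjusted p = 0.00364 and 0.000629) and between ID insulin and ID control by 0.28 and 0.23 (adjusted p = 0.0836 and 0.14). Ero1a, an oxidase that helps proteins fold, was 34.7 to 42.0 CPM in ID control and 35.6 to 51.3 CPM in ID insulin and rose by 0.19 (adjusted p = 0.0461), with 0.20 for title number 69 alone (adjusted p = 0.153) and 0.17 for 70 alone (adjusted p = 0.245).

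Markers of neighbouring tissue differed between groups, in different groups for different tissues. The summed level of 6 blood genes was 1056 to 4635 CPM in ID insulin (median 2729), and the medians of the other groups were 1262 CPM in IS control, 1391 in ID control and 1602 in IS insulin. That of 9 genes of thalamus and habenula was 163 to 581 CPM in ID insulin (median 218), with medians of 163 to 175 CPM elsewhere. For 10 genes of meninges and fibroblasts it was ID control that stood highest, at 620.3 to 1012 CPM, against 406 to 794 CPM in IS control, 369 to 680.0 in IS insulin and 369 to 663 in ID insulin. The 10 choroid plexus genes had medians of 325 CPM in IS control and 1028 CPM in IS insulin. Their medians were 2491 CPM in ID control and 3351 CPM in ID insulin. EdgeR called 0 of the 9 tested in each comparison of group pairs. In ID insulin against ID control their median log2 fold change was 0.05, with 0 at an unadjusted p below 0.05. Against IS control all 9 were above 0 in ID insulin (median 1.17, 4 at an unadjusted p below 0.05). The same held for ID control against IS control (median 1.16, 2 at an unadjusted p below 0.05). In ID insulin against IS insulin all 9 were also above 0 (median 0.74, 0 at an unadjusted p below 0.05). With the mean levels of these 4 lists as covariates, 1 of the 11 calls held, that of Mxi1 in ID insulin against IS insulin (adjusted p = 0.0369). The log2 fold changes of the 11 were then 74.7% to 103% of their values without covariates, and their standard errors were larger by 1.13 to 1.55 times. The adjusted p of Aldoc in ID insulin against IS insulin became 0.0653, and those of the other 9 calls lay between 0.119 and 0.498. The count of all genes called in ID insulin against ID control went from 589 to 9. The lists and the groups move together, so that fit cannot separate them.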

How the data were processed

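Whole-number counts per gene for 32 libraries were deposited by the authors. Per the submitters' processing notes, reads were handled with Trimmomatic 0.40, FastQC, HISAT2 2.1.0, featureCounts and edgeR. The notes list the builds Rnor_6.0 and mm10 without a role, and neither the strandedness nor the treatment of reads that match several places is given in the sources used here. The table holds 0 columns of other samples and 0 rows without a gene ID.

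The deposited counts were analysed in R 4.3.3 with edgeR 4.0.16: genes were filtered by group (15439 of 32883 tested), scaled by TMM and fitted with the quasi-likelihood F-test over all 32 libraries, 1 coefficient per group. P-values were adjusted by Benjamini-Hochberg over all genes tested and called below 0.05. CPM are on TMM-scaled totals, and 95% intervals use 28 residual degrees of freedom. The fit was tested on simulated data with the same dispersion for every gene and fold changes larger than those called here. That test therefore does not cover differences of the size called. Alternatives used DESeq2 1.42.0, limma 3.58.1 (voom with sample quality weights, named limma voom in the text), other filters, covariates and sample sets.

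The members and lists were chosen with earlier results of these data known. Genes were named in full if called in any of 6 comparisons or among the 3 lowest p-values of one, with Hif1a, Gapdh, Ldha and Vegfa in any case; of other lists, up to 3 called genes were named.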

Additional observations from a re-analysis of the deposited data

Results flagged for a closer look

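In 13 of 132 combinations of member and group, 1 library stood apart from the rest of its group by Dixon's test, which chance alone gives in about 1 in 20. IS insulin replicate 1 was the lowest of its group for Aldoa at 1149 CPM (the others 1322 to 1370.4), for Epas1 at 197 CPM and for Hk1 at 269 CPM. In ID insulin, replicate 3 had the most Bnip3 (263 CPM) and Tpi1 (25.7 CPM) and the least Bhlhe40 (35.5 CPM). ID insulin replicate 5 was lowest for Ankrd37 at 1.99 CPM, and ID insulin replicate 2 highest for Eno1 at 649.5 CPM. In ID control, replicate 3 was highest for Ddit4 at 90.9 CPM and replicate 2 for Hif1a at 113 CPM. Eno2 stood at 84.7 CPM in IS control replicate 8, and Tpi1 at 25.9 CPM in IS control replicate 7 and 28.0 CPM in IS insulin replicate 3.

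The insulin effect differed between ID and IS pups, by the interaction term of the edgeR fit, for Ldhb (-0.24 on the log2 scale, adjusted p = 0.0307) and for Mxi1 (-0.31, adjusted p = 0.0181).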

How the results depend on the processing

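No member changed direction under any alternative in a comparison where it was called. The call of Mxi1 in ID insulin against IS insulin held under every alternative run. That of Ldhb in the same comparison held under 6 of 13, single left-out libraries aside. Members called in ID insulin against ID control went from 4 to 1 with only the compared groups in the fit, 0 with the tissue lists as covariates, 1 with title number 69 alone, 2 with 70 alone and 2 without ID insulin replicates 3 and 5. Leaving out 1 library gave 1 to 6, with 1 without ID control replicate 5. For ID control against IS control, 0 became 1 with limma voom and with only the compared groups, and for IS insulin against IS control 0 became 2 with DESeq2. With the tissue lists as covariates, ID insulin against IS insulin went from 3 to 1 and against IS control from 2 to 0; leaving out 1 library gave 2 to 4 and 2 to 3. For the difference between insulin effects, 2 became 4 with DESeq2, 5 with limma voom, 1 with no count filter, 0 with the tissue lists, 0 with title number 69 alone, 1 with 70 alone and 5 without ID insulin replicates 3 and 5. Leaving out 1 library gave 1 to 5 there: 5 without ID insulin replicate 3, 4 without ID control replicate 1 or 2, and 1 without ID control replicates 3, 4 or 5, IS control replicates 2 or 5, IS insulin replicates 2 or 3, or ID insulin replicates 6 or 8. The cause was not tested. Over all genes, the calls in ID insulin against ID control ranged from 9 to 819 over the alternatives, around 589.

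With the second title number as a replicate block the calls were 0, 6, 0, 2 and 3 in the 5 pair comparisons, and 0 for the difference between insulin effects, where Mxi1 had an adjusted p of 0.129 and Ldhb 0.22. Of the 6 in ID insulin against ID control, Pfkfb3, Pgam1 and Pkm had not been called without the block, and Mxi1 was not called with it (-0.11, adjusted p = 0.141). Same-numbered libraries of different groups correlated at -0.23 to 0.32 (median 0.03, 12 of 40 pairs over 0.1). Differently numbered pairs were not set beside them, so these values cannot show whether the number pairs the libraries.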
